A study of Drosophila melanogaster with 8 samples.

Results

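The proteasome is the protease that degrades ubiquitin-tagged proteins in the cytosol and nucleus of eukaryotic cells. Its barrel-shaped core stacks rings of alpha subunits, which form the gate, around rings of beta subunits, some of which carry the protease sites. A regulatory cap binds the barrel's ends: its Rpt subunits are ATPases that unfold the substrate and push it inside, and its Rpn subunits recognise the ubiquitin chain, remove it or hold the cap together. In muscle the proteasome turns over contractile and regulatory proteins, and in the fly several subunits have a second gene that is used in the testis.

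The genes described here are those whose symbol on the array begins with a proteasome subunit name (Prosalpha, Prosbeta, ProsMA, Pros followed by a number, Rpn or Rpt). The rule found 31 of the 13305 genes on the array, each with 1 oligonucleotide, and it uses names alone. Of these, 25 encode core and cap subunits, 4 are testis paralogues (Prosalpha3T, Prosalpha4T1, Prosalpha4T2 and Prosalpha6T) and 2 are related copies (Prosbeta5R1 and Rpt3R). The core is represented by all 7 alpha subunits and 4 beta subunits, and the cap by 5 Rpt and 9 Rpn subunits. Another 7 core and cap genes and 10 related copies stand on the array under older or numbered names and fall outside the rule. They are described apart. Genes are called here by their current names, and the current Prosalpha1 is the gene that the array files call Prosalpha6. The current Prosalpha6 is their Pros35.

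The RNA came from Drosophila melanogaster larvae of the third instar of the strain labelled WT (yw; Canton S), raised at 25 °C. In one comparison, the heart, the contractile posterior part of the larval dorsal vessel, was set against the aorta, its anterior part, with 10 individuals in each dissected pool. In the other, the whole dorsal vessel was set against whole larvae, with 5 individuals in each pool, and the sex of the larvae is not given in the labels. Each comparison had 4 biological replicates, and each replicate was 1 two-colour array, with the dyes exchanged between replicates 1 and 2 and replicates 3 and 4. About 100 ng of total RNA from each pool was amplified over 2 rounds before labelling. Ratios are given as log2 of heart over aorta, the opposite direction to the deposited ratios, and as log2 of dorsal vessel over whole larva. In tissue RNA of this kind, fewer cells of a type and less RNA per cell cannot be told apart.

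The median spot of a channel lay between 1.22 and 2.48 relative fluorescence units (RFU), over a local background of 0.945 to 2.08 RFU. A gene was tested if 2 or more arrays of either RNA gave a signal over the detection level, the 95th percentile of the spots with no gene (negative controls and empty positions), and if both dye orientations gave a value. One block of 656 spots was out of place on 3 arrays and was left out there. Among the subunit genes this touched Rpn7, which kept 3 arrays for heart against aorta and 2, both of the same dye orientation, for dorsal vessel against whole larva. Dorsal vessel markers were present, but not all were higher in the vessel. Of 9 heart markers tested, 6 were higher in the dorsal vessel and 2 lower, namely svp (-2.19) and Mhc (-1.91). The highest was Hand, a transcription factor of cardiac cells, with a log2 ratio of dorsal vessel over whole larva of 5.56 (SE 0.34, n = 4 arrays, limma adjusted p = 6.58e-05). Another cardiac transcription factor, tin, rose above detection on 4 arrays in the dorsal vessel and on 0 in whole larvae. Its ratio was small, at 0.37 (SE 0.09, limma adjusted p = 0.0191).

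Most core and cap subunits gave strong signals in every RNA. The median over the 25 genes was 56.5 RFU in heart, 41.1 RFU in aorta, 30.0 RFU in dorsal vessel and 23.5 RFU in whole larvae, whereas the median over all oligonucleotides was between 1.65 and 2.24 RFU. Of the 25, 22 lay above detection on all 4 arrays in heart and in aorta, 20 in dorsal vessel and 19 in whole larvae. The oligonucleotide for Rpn12, a subunit of the cap's lid, rose above detection on 0 arrays and was not tested. Rpt6, one of the ATPases, exceeded it on 2 arrays in heart, 1 in dorsal vessel and 0 in aorta and in whole larvae. Signals of different oligonucleotides are not on 1 scale, so the subunits are not ranked against each other.

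No core or cap subunit gene passed the test between heart and aorta. Of 24 tested core and cap genes, 0 passed the limma test at an adjusted p of 0.05, while 135 of 7124 genes tested passed (1.90%). Of those 135, 100 were higher in heart (1.40% of the genes tested) and 35 in aorta (0.491%). The share of calls higher in heart, 74.1%, depended on the setting. With median centring in place of loess it was 88.9%, and with the normexp offset of 50 in the unit of the files 54.3%. With a dye term of its own for each comparison it was 51.8%, and without replicate 3 it was 48.5%. The subunit ratios ran from -0.14 to 0.41 on the log2 scale with a median of 0.08, against -0.003 for all genes tested, and 16 were positive and 8 negative. The split depended on the scaling: 23 of 24 were positive with median centring, which moved the median of all genes tested to 0.12, and 21 of 24 from the deposited ratios, with 0 past the test in both. Every 95% confidence interval of the 24 lay within a 2-fold difference in either direction, and 19 lay within 1.5-fold. The lowest bound was -0.49 (Prosbeta6) and the highest 0.84 (Rpn6). These intervals rest on a dye term shared by both comparisons, although the 2 dye orientations also hold different pools. For Prosalpha5 the SE of the fit was 0.10, where the SD of its 4 arrays was 0.50.

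The count of 0 holds 3 genes with p below 0.05 before adjustment, all with higher values in heart, where 1307 of all genes tested (18.3%) had such a p, 9.33% with higher values in heart. They are named here after their values were seen. Rpn1, a scaffold subunit at the base of the cap, had log2 ratios of 0.68, 0.71, 0.12 and 0.12 on replicates 1 to 4, and its fitted ratio was 0.41 (SE 0.12, limma adjusted p = 0.130). Rpn10, a ubiquitin receptor, had 0.73, 0.71, 0.01 and -0.004, with a fitted ratio of 0.36 (SE 0.08, limma adjusted p = 0.0732). Rpn7, a lid subunit, had 0.03, 0.13 and 0.71 on replicates 1, 2 and 4, with a fitted ratio of 0.40 (SE 0.12, limma adjusted p = 0.208), and 0.08 without replicate 4. In Rpn1 and Rpn10 the values of replicates 1 and 2 lay well above those of replicates 3 and 4, which carried the dyes the other way round. With a dye term of its own for each comparison, Rpn1 (limma adjusted p = 0.0406) and Rpn10 (limma adjusted p = 0.0386) passed. That setting raised the calls over all genes as well, to 382 from 135 in the main fit. With only the 4 arrays of the comparison, 7 genes passed over all.

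By role, the 8 tested Rpn genes all had positive ratios of heart over aorta, from 0.05 to 0.41 with a median of 0.26. Of all 7124 genes tested, 3518 had a positive ratio. On replicate 4 alone 4 of the 8 Rpn genes were positive, and 7 were in the fit without replicate 2 or without replicate 3. All 8 stayed positive in the deposited ratios and with median centring, which raised the median of every group. The 5 Rpt genes ran from -0.10 to 0.15, with 2 positive. The 7 alpha genes ran from -0.06 to 0.33, with 3 positive, and the 4 beta genes from -0.14 to 0.09, with 3 positive. With median centring 4 Rpt, 7 alpha and 4 beta genes were positive, and in the deposited ratios 5, 5 and 3. Prosbeta2, which carries the trypsin-like site, gave -0.51, 0.03, 0.64 and 0.22 on replicates 1 to 4 (fitted ratio 0.09, SE 0.11). Prosbeta5, which carries the chymotrypsin-like site, gave 0.11, 0.43, 0.07 and -0.39 (fitted ratio 0.05, SE 0.13). For both, the replicates fell on either side of 0.

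**Figure D1:**
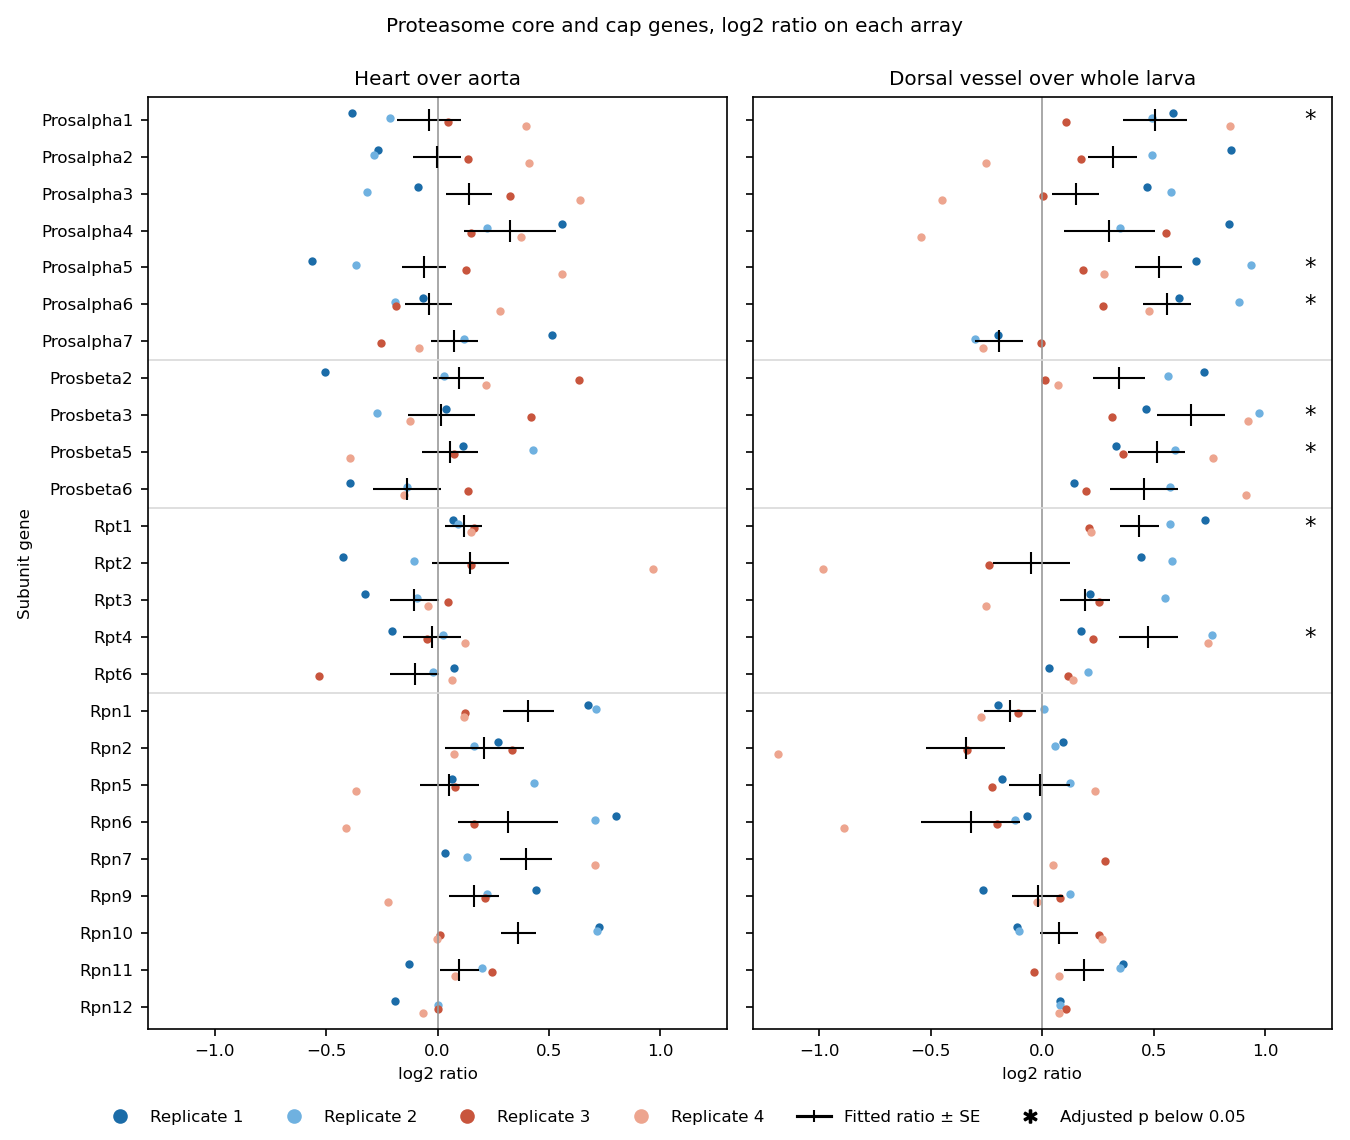
Log2 ratio (horizontal axis) of each of the 25 core and cap genes (vertical axis) on each array, for heart over aorta (left) and dorsal vessel over whole larva (right); dots are arrays, with replicates 1 and 2 in blue and 3 and 4 in red, black marks are the fitted ratio ± SE of tested genes, and asterisks mark an adjusted p below 0.05. In the left panel 0 genes carry an asterisk; in the right panel 7 do, all with a positive ratio, 5 of them in the core.

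In the core, the ratios of heart over aorta differed between the 2 dye orientations. The orientations also hold different pools, and which of these the ratios followed was not tested. In 5 of the 11 core genes (45.5%), both arrays of one orientation lay on one side of 0 and both arrays of the other on the opposite side; in the 12 cap genes with 4 arrays this was so for 1, and over all genes tested for 20.8%. The core median was -0.20 for the means of replicates 1 and 2 and 0.22 for those of replicates 3 and 4. Prosalpha5, an alpha subunit of the gate ring, is an example, with -0.56, -0.37, 0.13 and 0.56 on replicates 1 to 4. Across the core and cap genes, replicates 1 and 2 correlated at Pearson r = 0.786 (24 genes), replicates 1 and 4 at -0.447 and replicates 2 and 4 at -0.525. Replicates 3 and 4, which share an orientation, correlated at only 0.094 (23 genes). Replicates 1 and 3 stood at -0.175, and 2 and 3 at -0.044. Over all genes tested, r was 0.450 for replicates 1 and 2 and 0.460 for 3 and 4. Across orientations it was -0.510 (1 and 3), 0.023 (1 and 4), 0.105 (2 and 3) and 0.164 (2 and 4). These are correlations across genes, which share their array and dye. The dye effects of the 2 sets of arrays had a Spearman rank correlation of 0.537 over the 22 core and cap genes tested in both, and of 0.104 over all 6130 such genes.

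**Figure D2:**
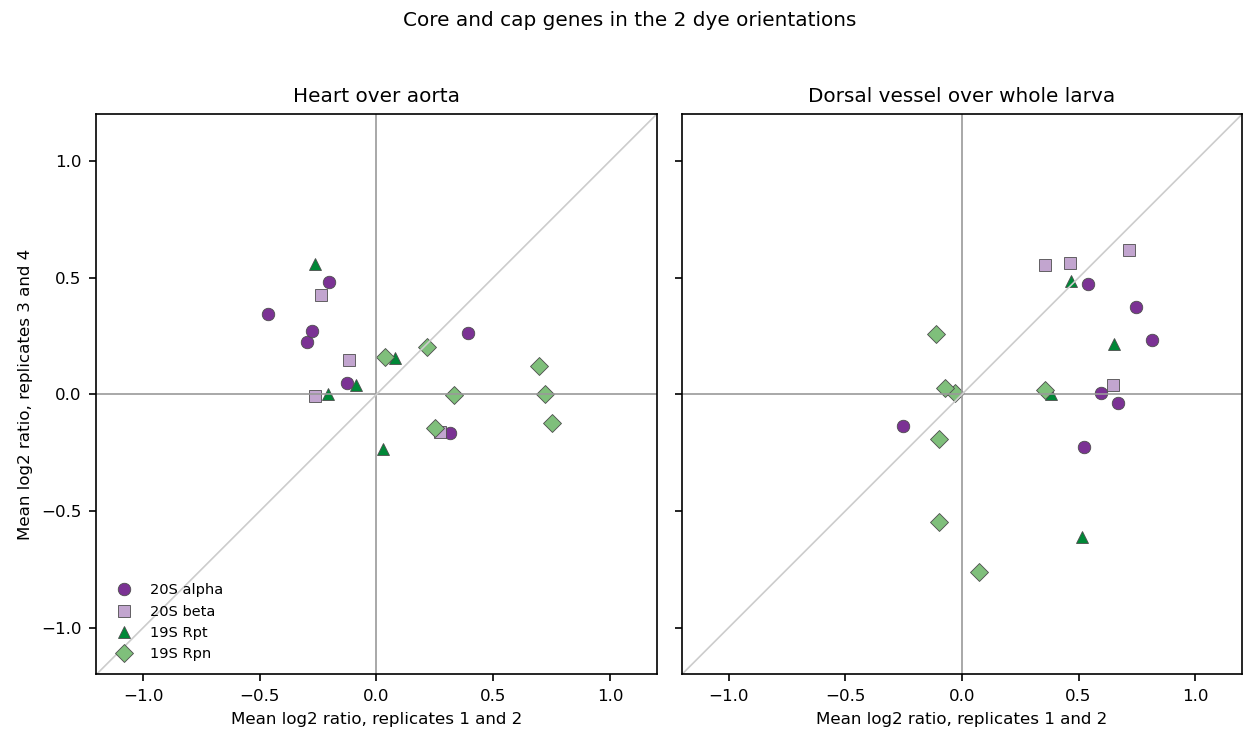
Mean log2 ratio of each tested core and cap gene over replicates 1 and 2 (horizontal axis) against its mean over replicates 3 and 4 (vertical axis), which carried the dyes the other way round; genes on the grey diagonal gave the same ratio in both, and Rpn7, with a missing array, is not drawn. For heart over aorta (left) the core genes lie mostly in the upper left, with medians of -0.20 and 0.22; for dorsal vessel over whole larva (right) they lie mostly to the right, with medians of 0.59 and 0.23.

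Markers of other tissues also differed between the heart and aorta pools. Of 7 hemocyte markers tested, 5 passed the test, all higher in heart, with a list median of 1.53, and their summed signal was 577 to 1263 RFU in heart and 101 to 186 RFU in aorta. The medians of 12 testis markers were 3.14, -0.46, -2.72 and 0.05 on replicates 1 to 4, those of 10 midgut markers 2.98, 0.77, -3.96 and -4.11, and those of 6 salivary gland markers 3.45, 2.18, -3.41 and 0.35. All 3 lists were high in heart on replicate 1 and high in aorta on replicate 3. The medians of the core and cap genes on the same arrays were 0.03, 0.06, 0.14 and 0.10. The part of these tissues in the subunit ratios was not tested.

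Against whole larvae, part of the proteasome core was higher in the dorsal vessel. Of 22 tested core and cap genes, 7 passed the limma test with higher values in the dorsal vessel and 0 with lower values; over all 7186 genes tested, 34.7% passed, 14.1% higher and 20.6% lower. The 7 were Prosalpha1, Prosalpha5, Prosalpha6, Prosbeta3 and Prosbeta5 of the core and the ATPases Rpt1 and Rpt4 of the cap. Their differences were modest, from 1.35-fold for Rpt1 to 1.59-fold for Prosbeta3. The median log2 ratio of the 22 was 0.25, against -0.05 for all genes tested, and 15 were positive and 7 negative. With the normexp offset of 50 in the unit of the files 21 of 22 were positive, and with median centring 20 of 22. With no background subtraction the median was 0.12. Before adjustment, 10 had p below 0.05, all positive, where 20.4% of all genes tested had such a p with a positive ratio and 48.4% in either direction.

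Among the alpha subunits, which form the outer rings and the gate, 6 of 7 ratios were positive and 3 passed. Prosalpha6 had log2 ratios of 0.61, 0.88, 0.27 and 0.48 on replicates 1 to 4, and its fitted ratio was 0.56 (SE 0.11, limma adjusted p = 0.00861). Prosalpha5 had 0.69, 0.93, 0.18 and 0.28 (fitted ratio 0.52, SE 0.10, limma adjusted p = 0.00994). For both genes every array was above 0, and replicates 1 and 2 were the higher ones. Prosalpha1 had 0.59, 0.49, 0.10 and 0.84 (fitted ratio 0.51, SE 0.14, limma adjusted p = 0.0337). Prosalpha1 has a near-identical copy in the genome, Prosalpha1R, and its oligonucleotide may also read that gene. The oligonucleotide for Prosalpha1R had a ratio of 0.04 (SE 0.13) and did not pass the test. Its median signal in the dorsal vessel was 228 RFU, against 5.62 RFU for that of Prosalpha1. Which of the genes each oligonucleotide read was not tested. The other 4 alpha genes did not pass: Prosalpha2 (0.32, SE 0.11, limma adjusted p = 0.0603) was the nearest, Prosalpha3 was at 0.15 and Prosalpha4 at 0.30. Prosalpha7 was at -0.19 with all 4 arrays below 0, from -0.30 to -0.01 (SE 0.11, limma adjusted p = 0.187), but its ratio was positive with the offset of 50 in the unit of the files, with median centring and in the deposited ratios.

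The 4 beta subunits on the list had positive ratios on all 4 arrays, where 26.2% of all genes tested did, and 2 passed. Prosbeta3, a structural subunit of the inner ring, had log2 ratios of 0.46, 0.97, 0.31 and 0.92 (fitted ratio 0.67, SE 0.15, limma adjusted p = 0.0163). Prosbeta5, the chymotrypsin-like protease subunit, had 0.33, 0.59, 0.36 and 0.77 (fitted ratio 0.51, SE 0.13, limma adjusted p = 0.0226). Its signal before normalisation was 10.8, 14.2, 12.1 and 8.86 RFU in the dorsal vessel and 6.50, 7.81, 7.08 and 8.07 RFU in whole larvae. These values mix the dyes. Prosbeta2, the trypsin-like subunit, had 0.73, 0.56, 0.01 and 0.07 (fitted ratio 0.34, SE 0.12, limma adjusted p = 0.0559), near 0 on replicates 3 and 4. Prosbeta6, another structural subunit, had 0.14, 0.57, 0.19 and 0.92 (fitted ratio 0.46, SE 0.15, limma adjusted p = 0.0547).

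In the cap, 2 of the 4 tested Rpt ATPases passed. Rpt1 had log2 ratios of 0.73, 0.57, 0.21 and 0.22 (fitted ratio 0.43, SE 0.09, limma adjusted p = 0.0102). Rpt4 had 0.17, 0.76, 0.23 and 0.74 (fitted ratio 0.48, SE 0.13, limma adjusted p = 0.0306), with signals of 2.28 to 4.25 RFU in the dorsal vessel and 1.95 to 2.95 RFU in whole larvae, the latter above detection on 2 arrays. Rpt3 was at 0.19 (SE 0.11). Rpt2 was at -0.05 (SE 0.17), with replicates 1 and 2 at 0.44 and 0.58 and replicates 3 and 4 at -0.24 and -0.98. Of the 7 tested Rpn genes, 0 passed in the limma test and 0 had p below 0.05 before adjustment. They ran from -0.34 to 0.19 with a median of -0.02, and 2 were positive, against 6 with the offset of 50 in the unit of the files and 5 with median centring. Rpn2, a scaffold of the cap base, and Rpn6, a lid subunit, had the lowest values, -0.34 (SE 0.18) and -0.32 (SE 0.22), and on replicate 4 they stood at -1.19 and -0.89. Rpn11, the deubiquitinase that strips the chain from the substrate, was at 0.19 (SE 0.09), and Rpn10 at 0.07 (SE 0.08).

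The core therefore had 5 of 11 genes past the test and a median of 0.46, and the cap 2 of 11 and a median of -0.01. The difference between core and cap was not tested. Core medians on replicates 1 to 4 were 0.59, 0.57, 0.18 and 0.28, above those of all genes tested (-0.02, -0.07, -0.06 and -0.06) on each array. Cap medians were 0.09, 0.13, -0.04 and -0.02. On replicate 4 the alpha genes, with a median of -0.25, and the beta genes, with 0.84, lay on either side of 0.

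**Figure D3:**
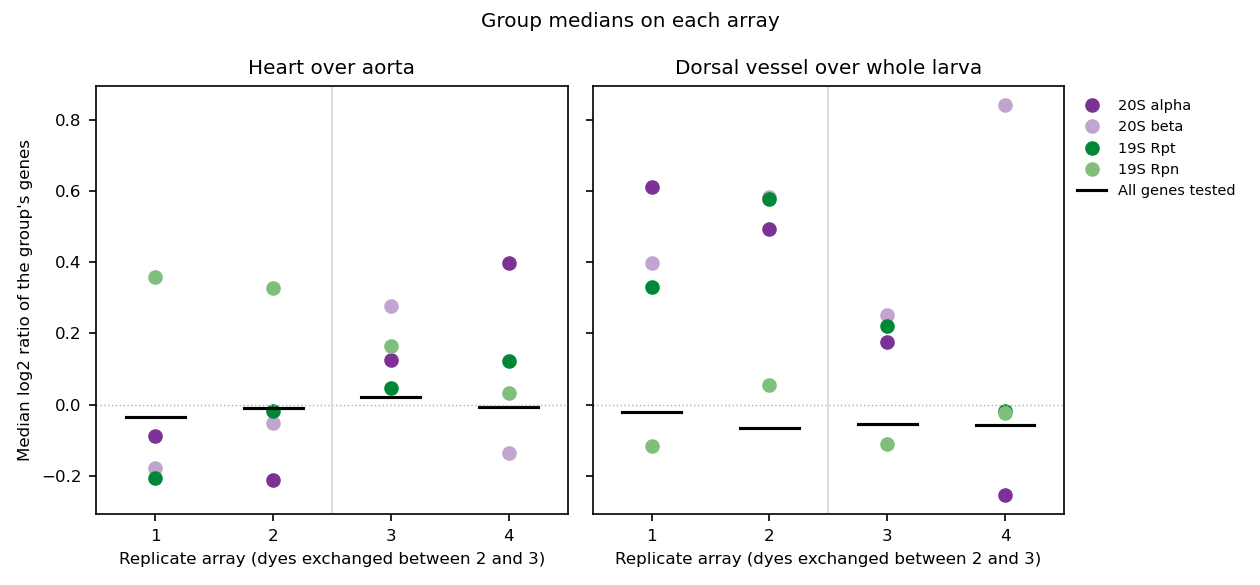
Median log2 ratio (vertical axis) of the tested alpha, beta, Rpt and Rpn genes on each replicate array (horizontal axis), with black bars for the median of all genes tested. For heart over aorta (left) the groups change order from array to array, with Rpn genes highest on replicates 1 and 2, beta genes on replicate 3 and alpha genes on replicate 4; for dorsal vessel over whole larva (right) the beta genes lie above the bar on all 4 arrays, at 0.40, 0.58, 0.25 and 0.84.

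Of the 7 calls, 4 depended on single arrays. Prosalpha5, Prosalpha6 and Rpt1 passed on every set of 3 arrays. Prosbeta3 did not pass without replicate 2 (limma adjusted p = 0.0773) or replicate 4 (0.0683), and Prosbeta5 passed only without replicate 3, with an adjusted p of 0.0525 to 0.100 otherwise. Rpt4 passed only without replicate 1 (0.0533 to 0.128 otherwise), and Prosalpha1 on no set of 3 arrays (0.0544 to 0.0900). The count of core and cap genes higher in the dorsal vessel was 6, 3, 5 and 5 without replicates 1, 2, 3 and 4. The median over the core and cap genes was 0.47 for the means of replicates 1 and 2 and 0.02 for those of replicates 3 and 4, the other dye orientation, and 3 of 22 genes, all in the cap, had both arrays of one orientation above 0 and both of the other below. Rpt1 was lost with no background subtraction (limma adjusted p = 0.327), with median centring (0.159) and from the deposited ratios (0.158), Prosalpha6 with no background subtraction (0.0573), and Prosalpha5 with median centring (0.0702) or no dye term (0.0778). Of 15 alternatives, the left-out replicates among them, Prosalpha1 and Rpt4 passed under 9 each, Prosbeta5 under 11 and Prosbeta3 under 13. Prosalpha1 was also lost with the offset of 50 in the unit of the files (limma adjusted p = 0.0577) and with only the 4 arrays of the comparison (0.0550). The 7 genes that passed had positive means in both orientations. They were chosen because they passed on the same arrays, so this is no separate support.

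Markers of other larval tissues were lower in the dissected vessel. Of 5 fat body markers tested, 5 were lower in the dorsal vessel with a median of -4.88, as were 5 of 5 salivary gland markers (median -5.35), 4 of 9 midgut markers (median -3.00) and 7 of 11 testis markers (median -2.39), and 0 of these 4 lists had a marker past the test in the other direction. Their summed signals in the dorsal vessel and in whole larvae were 44.3 to 135 against 1020 to 2919 RFU for fat body, 58.0 to 299 against 3265 to 4322 RFU for salivary gland, 49.7 to 133 against 1554 to 1899 RFU for midgut, and 27.0 to 109 against 123 to 754 RFU for testis. In the dorsal vessel 4 of 12 midgut, 2 of 14 testis, 1 of 6 fat body and 0 of 6 salivary gland markers on the array were below detection on every array. Hemocyte markers were near even, with a median of -0.02 and 1 of 7 lower. Of 9 heart markers, 6 were higher and 2 lower, namely Mhc, the muscle myosin heavy chain (-1.91), and svp (-2.19). The part of tissue make-up in the subunit ratios was not tested.

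The testis paralogues replace their namesakes in the proteasome of male germ cells. In whole larvae, Prosalpha4T2 was the one testis paralogue above detection on all 4 arrays, with 6.65, 6.33, 2.37 and 7.0 RFU, and in the dorsal vessel it exceeded detection on 1 array, with 2.78, 1.49, 1.36 and 1.13 RFU. Its ratios for the dorsal vessel were -1.06, -1.60, -0.22 and -0.95, and it was lower in the dorsal vessel (fitted ratio -0.96, SE 0.27, limma adjusted p = 0.0333). All 4 arrays were below 0, as were those of 35.5% of all genes tested. The call was lost without replicate 2, 3 or 4 (limma adjusted p = 0.0790 to 0.141) and under 6 other alternatives. Prosalpha4T1 was above detection on 2 arrays in whole larvae and 0 in the dorsal vessel, with -0.27, -0.47, 0.05 and -0.53. It did not pass the test (fitted ratio -0.30, SE 0.14, limma adjusted p = 0.120), and its interval of -0.63 to 0.02 includes 0. Since it was not above detection in the dorsal vessel, its mean signals give only a bound, at least 1.13-fold higher in whole larvae, which holds no margin for error. Prosalpha3T, with -0.06, -0.09, -0.03 and -0.13, exceeded detection on 1 array in whole larvae, and Prosalpha6T, with -0.17, -0.08, -0.04 and 0.02, on none; neither was tested.

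Between heart and aorta the testis paralogues were all positive on replicate 1 and all negative on replicate 3. Prosalpha6T was at only 0.01 and -0.01 there, and on the other replicates the signs were mixed. Prosalpha4T2 gave 1.54, 0.08, -0.84 and 0.05 (fitted ratio 0.21, SE 0.27, limma adjusted p = 0.779), high on replicate 1 and low on replicate 3. The testis marker medians were high and low on the same arrays, at 3.14 and -2.72. Prosalpha4T1 gave 0.47, -0.09, -0.25 and 0.08 (fitted ratio 0.05, SE 0.14). Prosalpha3T gave 0.27, 0.05, -0.09 and -0.05 and Prosalpha6T 0.01, 0.08, -0.01 and 0.11, both below the detection rule.

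Of the related copies, Rpt3R was tested in both comparisons. It gave 0.22, 0.04, -0.003 and 0.41 for heart over aorta (fitted ratio 0.17, SE 0.14, limma adjusted p = 0.608) and 0.48, -0.30, 0.03 and -0.22 for dorsal vessel over whole larva (fitted ratio -0.002, SE 0.14, limma adjusted p = 0.993). The second interval reached from -0.34 to 0.33. Prosbeta5R1 exceeded detection on at most 1 array of an RNA and was not tested, with 0.25, 0.01, -0.10 and -0.14 for heart over aorta and 0.57, -0.27, 0.07 and 0.01 for dorsal vessel over whole larva.

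**Figure D4:**
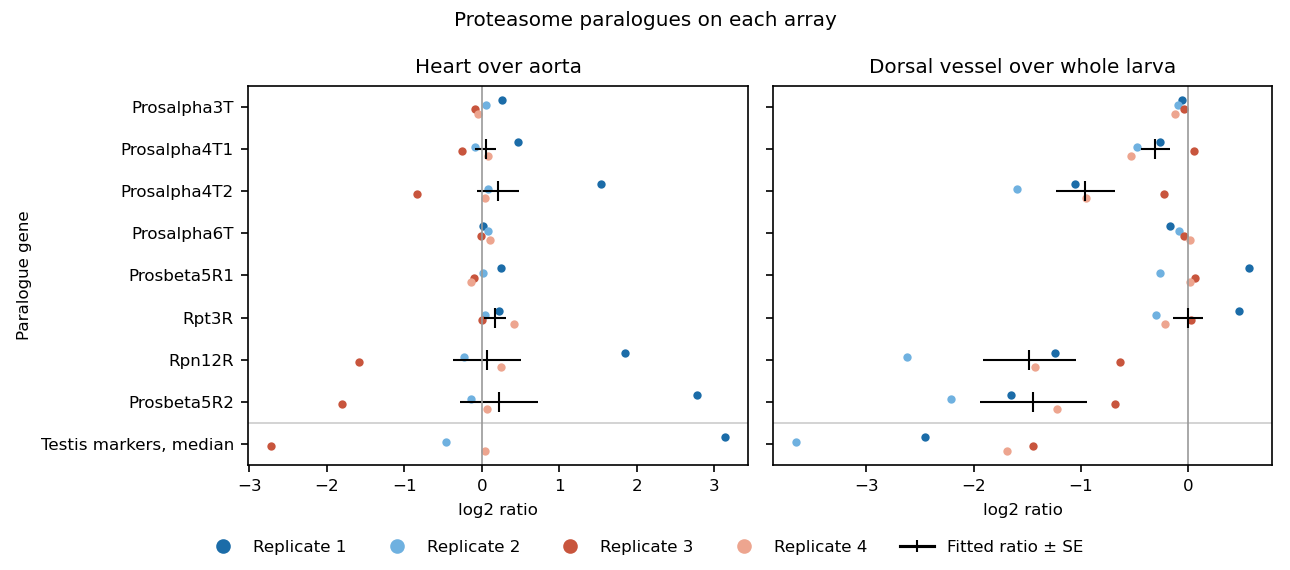
Log2 ratio (horizontal axis) of the 4 testis paralogues, of Prosbeta5R1 and Rpt3R, and of Rpn12R and Prosbeta5R2, which stand under other names on the array (vertical axis), with the testis marker median in the lowest line; dots are arrays and black marks the fitted ratio ± SE of tested genes. For heart over aorta (left) Prosalpha4T2 was at 1.54 on replicate 1 and -0.84 on replicate 3, where the marker median was 3.14 and -2.72. For dorsal vessel over whole larva (right) Prosalpha4T2, Rpn12R and Prosbeta5R2 were below 0 on all 4 arrays. Prosalpha3T, which was not tested, was also below 0 on all 4, from -0.13 to -0.03. The horizontal scales of the panels differ.

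Subunit genes under another name on the array were measured in the same fit. Between heart and aorta, 0 of 7 core and cap genes passed the limma test and 0 had p below 0.05 before adjustment, with a median of 0.13. For dorsal vessel over whole larva all 7 ratios were positive with a median of 0.22, and 1 passed. This was Prosbeta4, a structural subunit of the inner ring, with 0.74, 0.43, 0.35 and 0.80 (fitted ratio 0.58, SE 0.10, limma adjusted p = 0.00678), which passed under all 15 alternatives. Prosbeta1, which carries the caspase-like site, had 0.29, 0.71, 0.25 and 0.77 (fitted ratio 0.50, SE 0.18, limma adjusted p = 0.0664). Rpn13, a ubiquitin receptor, was at 0.29, Rpn8, the partner of Rpn11, at 0.22, Prosbeta7 at 0.12, the lid subunit Rpn3 at 0.11 and the ATPase Rpt5 at 0.06, none of them past the test. Of the 10 related copies, 6 were tested for dorsal vessel over whole larva. Rpn12R passed, with -1.24, -2.62, -0.63 and -1.43 (fitted ratio -1.48, SE 0.43, limma adjusted p = 0.0368). It passed under 8 of 15 alternatives, and without replicate 2, 3 or 4 the adjusted p was 0.0943 to 0.149 in limma. Prosbeta5R2 had -1.65, -2.21, -0.68 and -1.23 (fitted ratio -1.44, SE 0.50, limma adjusted p = 0.0597). The other 4 did not pass: Prosalpha1R was at 0.04, Prosbeta2R1 at -0.01, Prosbeta4R2 at -0.26 and Rpt4R at -0.15. In the heart and aorta pools Rpn12R and Prosbeta5R2 were high on replicate 1 (1.84 and 2.78) and low on replicate 3 (-1.59 and -1.81), as the testis markers were.

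Upstream of the proteasome, ubiquitin is made as a polyprotein or a ribosomal fusion, activated by E1, carried by E2 enzymes and delivered by shuttle factors. Between heart and aorta, 1 of 4 ubiquitin genes passed: the polyubiquitin gene Ubi-p63E had 1.07, 0.95, 1.66 and 1.18 on replicates 1 to 4 (fitted ratio 1.21, SE 0.12, limma adjusted p = 0.00949), higher in heart on every array. The other pathway lists held 12 activating and conjugating enzymes, 7 regulators and assembly factors, 11 shuttle and docking factors and 3 deubiquitinases. They also held 7 subunits of the COP9 signalosome, a complex built like the cap's lid. Of these 40 genes, 0 passed the limma test in that comparison. Before adjustment 7 had p below 0.05, where 18.3% of all genes tested did. The share of all genes past the test was 1.90% here and 34.7% for dorsal vessel over whole larva. For dorsal vessel over whole larva, 0 of 4 ubiquitin genes and 0 of 6 signalosome genes passed in the limma test, with 2 and 0 at p below 0.05 before adjustment. Of 6 regulators and assembly factors, 2 passed: REG, the fly's PA28-type activator, had 0.66, 0.52, 0.17 and 0.33 (fitted ratio 0.42, SE 0.08, limma adjusted p = 0.0100), and CG11885 had 0.47, 0.64, 0.32 and 0.37 (fitted ratio 0.45, limma adjusted p = 0.0448). Both were above 0 on every array. Of 3 deubiquitinases, Uch passed with 1.5, 0.62, 0.93 and 0.24 (fitted ratio 0.82, SE 0.17, limma adjusted p = 0.0126). The other 2, Uch-L5 (-0.13) and Usp14 (-0.03), did not pass. Lower in the dorsal vessel were 1 of 9 shuttle factors, rngo, with -0.55, -0.97, -0.90 and -1.10 (fitted ratio -0.88, limma adjusted p = 0.00935), and 1 of 12 conjugating and activating enzymes, vih, an E2 that acts in mitosis, with -0.81, -1.53, -0.62 and -1.43 (fitted ratio -1.10, limma adjusted p = 0.0113).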

How the data were processed

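The members and gene lists were chosen with earlier results of these data known. The spot intensities are, per the file headers, foreground and local background values in RFU for both dyes, and the array annotation cites releases 4.1 and 4.2. The deposited log2 ratios were normalised by the authors; limma is the tool in the submitters' processing notes, and its version is not given in the sources used here. Here R 4.3.3 with limma 3.58.1 was used. RFU values were scaled by 36.92 to a 16-bit range, corrected by normexp (offset 50, which is 1.354 RFU) and normalised by loess (span 0.3, 4 iterations). Controls and marked spots had weight 0. The brightest oligonucleotide stood for a gene. All 8 arrays were fitted with a coefficient for each comparison and a shared dye term (5 residual degrees of freedom), and p-values were adjusted by Benjamini and Hochberg over all genes tested.

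One block of 656 spots correlated at -0.026 to 0.173 with the other arrays on 3 arrays (other blocks 0.806 to 0.984) and was left out there, and a gene needed a value in both dye orientations to be tested. Both choices were made after seeing the data. By rule, values on every array are given for subunit genes past the test, the beta subunits with protease sites, the testis paralogues and the tested related copies found by name; pathway genes are named where they passed. Single values of other subunits were chosen after they were seen. Fold changes of dim genes are understated by the offset. The precision is limited by the 4 arrays of a comparison. The fit was tested on simulated data holding genes changed by a known fold. With the heart and aorta arrays it found 6% of 1.25-fold, 38% of 1.5-fold, 70% of 2-fold and 92% of 4-fold changes. With the other arrays these shares were 2%, 52%, 74% and 94%. Unchanged genes made up 6.36% of the simulated calls in the heart and aorta run and 11.9% in the other. Changes of 1.5-fold or less were thus often missed, and genes that did not pass may include them. Oligonucleotide and promoter sequences were not used here.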

Additional observations from a re-analysis of the deposited data

Results flagged for a closer look

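Of 51 subunit results measured on 4 arrays, 2 had 1 array far from the other 3, and chance alone flags about 1 group in 20. For heart over aorta, Rpt6 was at -0.53 on replicate 3 and between -0.02 and 0.07 on the other 3, and its oligonucleotide was above detection on 2 arrays in heart and 0 in aorta. For dorsal vessel over whole larva, Rpn6 was at -0.89 on replicate 4 and between -0.20 and -0.07 on the others. Neither gene passed the limma test (adjusted p = 0.712 and 0.273).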

How the results depend on the processing

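The count of core and cap genes higher in the dorsal vessel, 7, became 11 with a normexp offset of 50 in the unit of the files, 4 with median centring and 3 to 6 with a replicate left out; it was 5 to 7 under the other 9 alternatives, among them the block of spots kept, which was added after seeing the data. The count lower was 0 under all. For heart against aorta the counts were 0 under all, except 2 higher in heart with a dye term of its own for each comparison. The median log2 ratio of the core and cap genes for heart over aorta, 0.08, became 0.032 with the offset of 50 in the unit of the files, 0.42 with median centring and 0.13 from the deposited ratios, and 0.033 to 0.095 with a replicate left out. For dorsal vessel over whole larva, 0.25, it became 0.12 with no background subtraction, 0.18 with the offset of 50 in the unit of the files, 0.47 with median centring and 0.19 to 0.29 with a replicate left out. Median centring moved the median of all genes tested to 0.12 for heart over aorta. The cause of these shifts was not tested. Over all genes, the counts past the test ran from 7 (only the 4 arrays of the comparison) to 382 (own dye term) for heart against aorta, where the main count was 135, and from 1335 (without replicate 2) to 2716 (own dye term) for dorsal vessel against whole larva, where it was 2490. The 10 subunit genes past the test were recomputed under 149 alternatives: 109 passed and 0 had the other sign. These genes were chosen because they passed on the same arrays. Several alternatives, such as no filter on detection or no dye term, can leave the fitted ratio as it was, so the sign could not change there. The count of 0 is therefore no separate support. No paired analysis was possible because each ratio already pairs the 2 RNAs of an array, and the replicate numbers of the comparisons name different pools. Motifs in promoters were planned and not run. Adjusting over all oligonucleotides in place of genes gave the same 7 core and cap calls. Rpn12 was too dim to be tested in either comparison, and ratios of other dim genes are understated.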
